A study of Mus musculus with 2 samples.

Results

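Freshly isolated mouse muscle stem cells were set apart by how much inducible heat shock RNA each cell held. The 102 wells with a freshly isolated cell, called Quiescent in the well sheet, were chosen by their label and ranked by the summed counts of Hspa1a and Hspa1b as a share of all gene counts of the well. The 34 wells of highest share (Hspa1-high) were compared with the 34 of lowest share (Hspa1-low), with the 34 between them as a middle group, and Hspa1a and Hspa1b were left out of all comparisons. The 68 compared wells are part of 457 wells in the study, of which 456 had at least 500 gene counts and 250 detected genes, as had each of the 102.

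Muscle stem cells, also called satellite cells, lie under the basal lamina of muscle fibres, rest until the muscle is injured and carry the transcription factor Pax7. In the study they were sorted into 384-well plates, and polyadenylated RNA was read well by well with barcoded primers, a form of CEL-Seq2. Hspa1-high, middle and Hspa1-low cells all came from plate 1 and 1 library and share every treatment, since they are freshly isolated cells that were not cultured. The cultured wells held cells kept 96 h in medium containing 25 mM glucose (high glucose, also on plate 1), 5 mM glucose (low glucose, plate 2) or 10 mM galactose (plate 2), always beside 1 mM pyruvate. For the mice, the sources used here give no strain, age or number, and for the sort no surface marker. Single cells of 1 library are not replicates, so no test was possible, and the intervals given are exact 95% intervals for counting error alone.

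Hspa1a and Hspa1b encode the inducible Hsp70 chaperone, which holds unfolded proteins and, with Hsp40 co-chaperones such as Dnajb1 and exchange factors such as Hsph1, lets them refold. In unstressed cells the heat shock factor Hsf1 is kept inactive. In stressed cells it forms trimers on heat shock elements, which are inverted repeats of GAA, and switches on Hsp70, Hsp40, Hsp90 and the small heat shock proteins together. Early genes such as Jun, Fosb, Atf3 and Egr1 answer growth factors and stress within minutes. Both programmes are known to be switched on in muscle stem cells by the enzymatic dissociation and sorting that free them from the tissue. No cell fixed in its tissue was measured here, so RNA made before the isolation and RNA made during it cannot be told apart.

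The 2 genes that set the ranking lie close together on chromosome 17 and are near-identical copies, so the division of reads between them is uncertain and their sum was used. The 250 bases before the start site of each gene are shown because these are the control regions of the ranking measure. They are RefSeq sequences of build GRCm38.p6, both on the minus strand, at chr17:34972157-34972406 for Hspa1a and chr17:34959239-34959488 for Hspa1b. Capitals mark a pair of inverted units, GAA and TTC with any 2 bases between them.
Hspa1a: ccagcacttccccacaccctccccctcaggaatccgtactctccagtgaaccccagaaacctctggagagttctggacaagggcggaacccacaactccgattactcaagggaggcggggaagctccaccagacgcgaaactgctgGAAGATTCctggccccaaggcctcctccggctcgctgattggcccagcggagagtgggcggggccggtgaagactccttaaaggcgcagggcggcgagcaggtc
Hspa1b: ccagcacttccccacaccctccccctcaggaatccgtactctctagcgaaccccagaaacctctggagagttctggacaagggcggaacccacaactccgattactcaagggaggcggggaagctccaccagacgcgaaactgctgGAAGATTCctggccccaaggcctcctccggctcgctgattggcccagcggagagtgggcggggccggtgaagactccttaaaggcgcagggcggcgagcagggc
These 2 windows differed at 3 of 250 bases, and both held the capitalised pair with its first base 104 bases before the start site.

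The Hspa1 share chose the groups and is given as a description. It was 0.739 to 12.7% of gene counts in Hspa1-high wells (median 1.17%), 0.253 to 0.697% in middle wells (median 0.419%) and 0 to 0.250% in Hspa1-low wells (median 0.142%). The last well inside the high group had 0.739% and the first outside it 0.697%. The last well inside the low group had 0.250% and the first outside it 0.253%, so the borders do not fall on gaps. Hspa1a gave 831 counts in Hspa1-high wells, 132 in middle wells and 31 in Hspa1-low wells, and Hspa1b gave 1209, 300 and 109 counts in the same order. All 34 Hspa1-high wells had counts of both genes, whereas 20 of 34 Hspa1-low wells had a count of Hspa1a and 30 a count of Hspa1b.

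**Figure D1:**
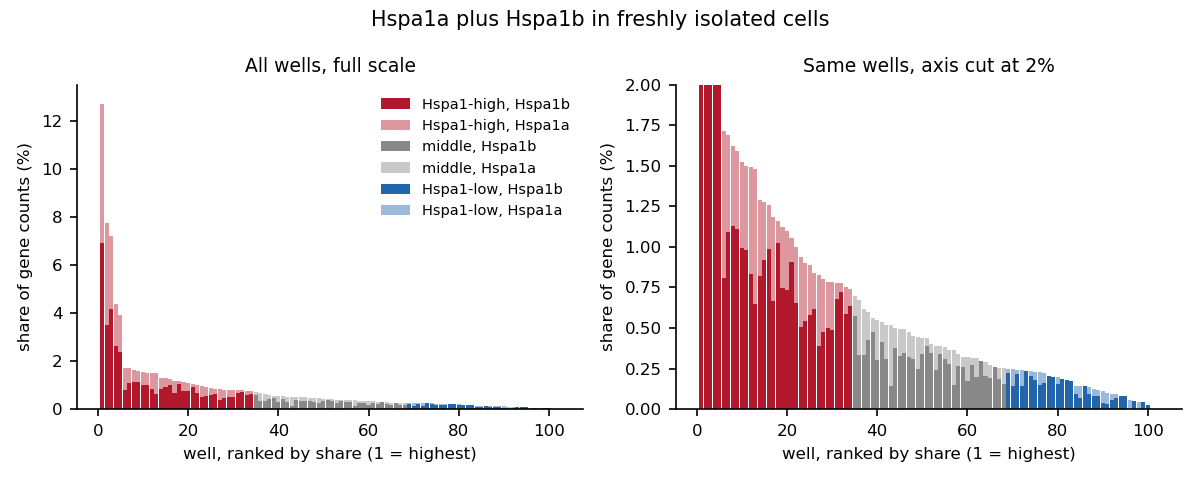
Share of gene counts held by Hspa1b (dark) and Hspa1a (light) in each of the 102 freshly isolated wells, ranked from highest to lowest, on the full axis (left) and on an axis cut at 2% (right), where the first 5 bars run off the top. 5 wells stand apart at 3.93% and above, and below 1.72% the shares fall off without a gap between the coloured groups.

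5 wells stood apart at the top of the ranking. Their shares were 12.7, 7.74, 7.18, 4.36 and 3.93%, and the sixth well had 1.72%. They lay in plate rows A, C, E and F. They held 19.7% of the gene counts of the Hspa1-high wells but 61.1% of the Hspa1 counts. Many results below, though not all, are therefore given with and without them, an alternative chosen after the data were seen.

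The median depth of the compared groups was close. Gene counts per well were 1710 to 4458 in Hspa1-high wells (median 2492) and 1636 to 6606 in Hspa1-low wells (median 2552.5), and median genes per well were 1350.5 and 1403. Without Hspa1a and Hspa1b the group totals were 85755 counts in Hspa1-high, 100646 in middle and 95096 in Hspa1-low wells. Raw counts given below are therefore not on the same scale between groups, whereas the ratios are scaled. The median ratio of gene to ERCC spike-in counts, which reads RNA per well, was 18.3 in Hspa1-high wells and 19 in Hspa1-low wells. The ratio ran from 11 to 27.5 in Hspa1-high wells and from 13.2 to 35.5 in Hspa1-low wells. The 5 wells of highest share all lay above both medians of their group, at 3002 to 4458 gene counts and ratios of 20.6 to 27.5. Plate rows were shared unevenly, with 6 Hspa1-high and 1 Hspa1-low wells in row B. When high and low wells were chosen within each plate row, the heat shock list described below had a ratio of 1.90. Plate columns were shared unevenly too. In row C, for example, Hspa1-high wells lay in columns 14 to 24 and Hspa1-low wells in columns 1 to 16. Choosing wells within rows leaves this in place, and the part of plate column was not tested. There were 200 barcodes in use on both plates, but all compared wells lay on plate 1.

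The stem cell label was looked up in the data. All 102 wells had a count of at least 1 of 9 stem cell markers and 92 had at least 3. Myod1, the myogenic factor that marks activated as well as committed stem cells, was detected in 88 wells, and Pax7 in 28. Fibro-adipogenic markers summed to 1154 CPM (counts scaled to a common total of gene counts, Hspa1a and Hspa1b left out) in Hspa1-high wells and 1535 CPM in Hspa1-low wells. Smooth muscle and pericyte markers summed to 455 and 620 CPM, endothelial markers to 233 and 137 CPM, and myofibre markers to 35.0 and 31.5 CPM, in the same order. Only 6 of 12 fibro-adipogenic and 5 of 11 myofibre markers could be looked up, and 0 of 5 erythroid ones. The same held for 3 of 12 immune, 3 of 7 glial and 2 of 6 tenocyte markers. These last 3 sets gave 11.7 CPM or less in either compared group, but glial markers gave 59.6 CPM in middle wells. At least 3 markers of the same other type were found in 1 (fibro-adipogenic) and 1 (endothelial) of the Hspa1-high wells. They were found in 1 (fibro-adipogenic) and 3 (smooth muscle) of the Hspa1-low wells, and in 5 (fibro-adipogenic) and 6 (smooth muscle) of the middle wells. Without such wells, middle ones included, the heat shock list had a ratio of 1.82.

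Of 1911 genes with a mean of at least 100 CPM, 76 were higher and 78 lower in Hspa1-high wells by at least 1.5-fold with an interval that left out 1 (3.98% and 4.08% of these genes). With ERCC scaling the split was 56 higher and 143 lower, and the median log2 ratio of all genes was -0.19, against -0.05 with total counts. The shares of 3.98% and 4.08% are the background for genes counted from a mean of 100 CPM. Members of gene lists are counted from 50 CPM, where 3.25% of 3480 genes were higher and 3.05% lower. Because a gene qualifies by its mean over both groups, genes seen in 1 group alone can qualify.

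Of the 10 genes higher in Hspa1-high wells whose interval lay farthest above 1, 4 encode heat shock proteins: Dnajb1, Hspb1, Hspe1 and Hspa8. Gm8355, Gm15459 and Gm5575 are pseudogene copies of Hspa8, and Gm5844 and Gm5511 are copies of Hsp90aa1. The remaining gene, the long non-coding RNA Gm26870, had 36 counts in Hspa1-high wells and 12 in Hspa1-low wells.

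The heat shock list, of cytosolic chaperones and their co-chaperones, was higher as a whole in Hspa1-high cells. It summed to 21701 CPM in Hspa1-high wells, 14347 CPM in middle wells and 12303 CPM in Hspa1-low wells, a ratio of 1.76 (95% counting interval 1.64 to 1.90) of high over low. Of its 34 genes 32 could be looked up and 24 reached a mean of 50 CPM. 6 of the 24 were higher and 1 was lower, against 3.25% higher and 3.05% lower among all 3480 genes at that level, and the median log2 ratio was 0.42, against -0.04 for all genes. Per well the list reached 7181 to 65841 CPM in Hspa1-high wells (median 17482) and 5579 to 19286 CPM in Hspa1-low wells (median 12106). In 32 of 34 Hspa1-high wells it lay above the Hspa1-low median, and in 13 above every Hspa1-low well, so the groups overlapped. Across the 102 wells the list's CPM had a Spearman rho of 0.59 with the Hspa1 share; the wells share a library, and both measures divide by nearly the same total. Without the 5 wells of highest share the ratio was 1.36 (1.26 to 1.48).

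**Figure D2:**
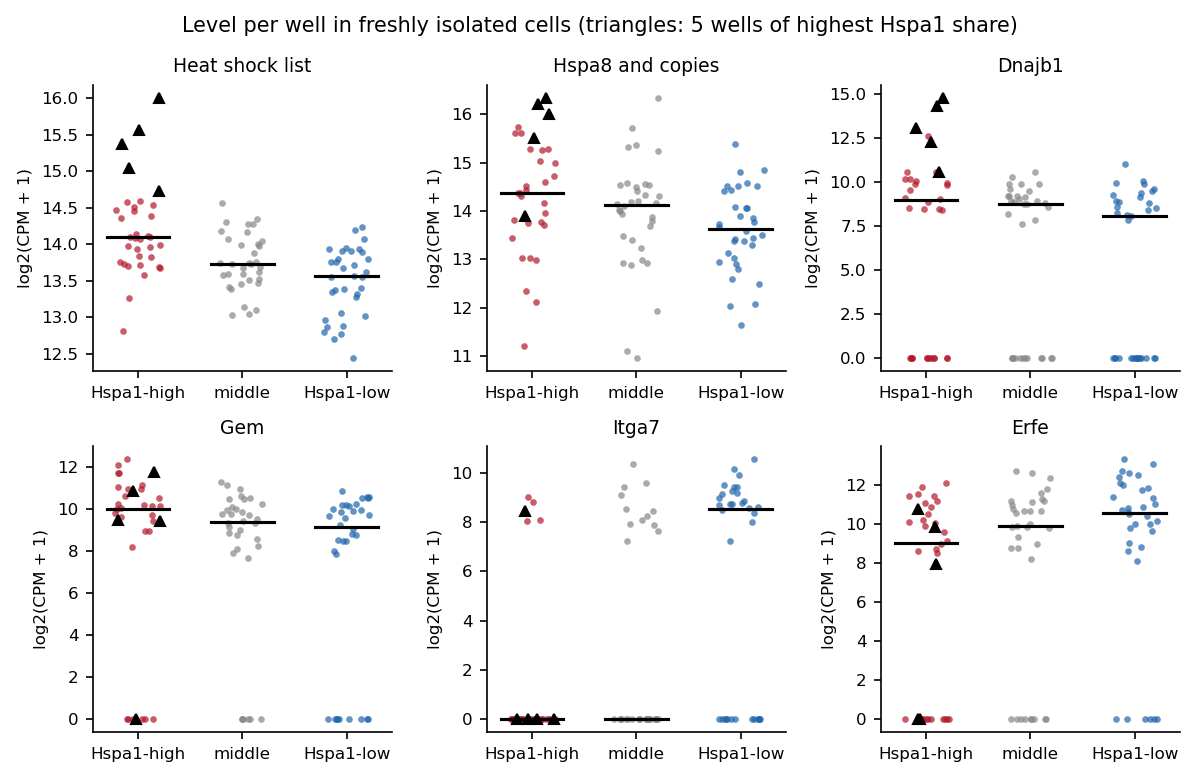
Level per well, as log2(CPM + 1), of the summed heat shock list, Hspa8 with its copies, Dnajb1, Gem, Itga7 and Erfe in Hspa1-high, middle and Hspa1-low wells (34 each). Points are wells, triangles the 5 wells of highest Hspa1 share and bars medians. The heat shock list shifts over the whole group, Dnajb1 mainly in the triangles, and Itga7 is at 0 in most Hspa1-high wells.

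Among the named heat shock genes Dnajb1 had the highest ratio. It is the main Hsp40 induced with Hsp70, and had 241 counts in Hspa1-high wells, 42 in middle wells and 31 in Hspa1-low wells, a ratio of 8.62 (5.92 to 13.0). Its count per well ran from 0 to 85 with a median of 1.5 in Hspa1-high wells and from 0 to 4 with a median of 1 in Hspa1-low wells. The difference lay in few cells: the 5 wells of highest Hspa1 share had 85, 59, 21, 25 and 5 counts, in the order of their share, which is 80.9% of the group's Dnajb1. Dnajb1 was detected in 22 Hspa1-high and 19 Hspa1-low wells, and without the 5 wells its ratio was 2.02. Hsph1, the Hsp110 exchange factor of Hsp70, had 57 counts in Hspa1-high wells and 26 in Hspa1-low wells (2.43, 1.5 to 4.03; 1.84 without the 5 wells). Hspa4l, a second Hsp110 protein, had 24 and 12 counts, and Bag3, which hands Hsp70 clients to autophagy, had 78 and 52 counts (1.66, 1.16 to 2.41; 1.34 without the 5 wells). The 1 lower member of the list was Unc45a, a myosin chaperone, with 3 counts in Hspa1-high wells and 13 in Hspa1-low wells. Hsf1 itself had 17 counts in each group, before scaling to the differing group totals.

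Hspa8, the constitutive Hsp70, was higher across much of the group. It had 282 counts in Hspa1-high wells, 214 in middle wells and 144 in Hspa1-low wells, a ratio of 2.17 (1.77 to 2.67), and 1.59 without the 5 wells. Counts per well ran from 0 to 36 with a median of 5.5 in Hspa1-high wells and from 0 to 11 with a median of 4 in Hspa1-low wells. The groups overlapped, with 25 of 34 Hspa1-high wells above the Hspa1-low median.

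Most reads of the Hspa8 sequence were counted on its pseudogenes. Hspa8 has 11 processed copies of at least 50 CPM here, found by their nearest protein-coding transcript (86.7 to 99.7% identity), and they held 88.8% of the counts of Hspa8 and copies together. The sources used here do not state how the authors' counting treated reads that fit several copies, so copies and parent were also summed. The sum was 2444 counts in Hspa1-high wells and 1344 in Hspa1-low wells, or 28500 CPM in Hspa1-high wells, 19176 CPM in middle wells and 14133 CPM in Hspa1-low wells. The ratio of high over low was 2.02 (1.89 to 2.16), and 1.52 (1.41 to 1.64) without the 5 wells. The copies differed in the same direction as the parent: Gm8355 had 642 and 364 counts, Gm15459 553 and 301, and Gm5575 173 and 83 in Hspa1-high and Hspa1-low wells, and 8 of the 11 copies were higher. Gm8355 was under the fold without the 5 wells, at 1.47. Per well the sum ran from 2386 to 83132 CPM in Hspa1-high wells (median 21200) and from 3207 to 42722 CPM in Hspa1-low wells (median 12686). 1 middle well had 82226 CPM, nearly as much as the highest Hspa1-high well.

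Hsp90aa1, the stress-inducible cytosolic Hsp90, had 425 counts in Hspa1-high wells, 311 in middle wells and 251 in Hspa1-low wells, a ratio of 1.88 (1.60 to 2.20). It was detected in all 34 wells of both groups, at 1 to 61 counts with a median of 9 in Hspa1-high wells and 2 to 24 counts with a median of 6 in Hspa1-low wells. It was under the fold without the 5 wells, at 1.40. With its 4 copies the ratio was 2.07 (1.83 to 2.35), and 1.46 without the 5 wells. Hsp90ab1, the constitutive form, had 420 and 349 counts in Hspa1-high and Hspa1-low wells, a ratio of 1.33 (1.16 to 1.54), under the 1.5-fold used here. Copies of Dnaja1, another Hsp40 gene that is itself not analysed here, gave 136 and 67 counts (2.25, 1.67 to 3.06). Without the 5 wells their ratio was 1.67 (1.19 to 2.34).

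Copies of heat shock genes made up most of the pseudogenes that were higher. Of 362 pseudogenes of at least 100 CPM, 19 were higher and 10 lower in Hspa1-high wells (5.25% and 2.76%). Of the 18 nearest to a gene of the heat shock list, 13 were higher and 0 lower. Of the other 344, 6 were higher and 10 lower, and of 219 nearest to a ribosomal protein gene 0 were higher and 4 lower. Because reads of a parent can be counted on its copies, these counts add no evidence apart from that of the parents.

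Small and mitochondrial heat shock proteins followed, led by 1 gene each. Hspb1 (Hsp27), which binds actin and unfolding proteins, had 93 counts in Hspa1-high wells, 18 in middle wells and 22 in Hspa1-low wells, a ratio of 4.69 (2.92 to 7.84), and 2.05 without the 5 wells, which held 64.5% of the group's counts. It ran from 0 to 26 counts in Hspa1-high wells and from 0 to 6 in Hspa1-low wells, and was detected in 18 and 12 wells. Cryab, a small chaperone of muscle, had 57 and 45 counts (1.40, 0.934 to 2.12), and its ratio without the 5 wells was 0.788. Hspe1, the mitochondrial Hsp10 lid of the Hsp60 chaperonin, had 43 counts in Hspa1-high wells, 27 in middle wells and 10 in Hspa1-low wells. It was detected in 20 Hspa1-high and 8 Hspa1-low wells with at most 8 and 2 counts per well, a ratio of 4.77 (2.36 to 10.6), and 3.41 without the 5 wells, so it differed beyond them. The other mitochondrial chaperones that could be looked up were not past the fold in either direction. Without the 5 wells the summed ratio of the small heat shock proteins was 1.29 (0.91 to 1.82), against 2.45 with them, and that of the mitochondrial chaperones 1.47 (0.93 to 2.33), against 2.02, so both intervals then held 1.

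The upstream windows of Hspb1 and Hspe1 are shown because these genes had the highest ratios among the named heat shock genes outside the Hsp70 and Hsp40 families. They are RefSeq sequences of build GRCm38.p6 on the plus strand, at chr5:135887669-135887918 for Hspb1 and chr1:55087898-55088147 for Hspe1, and capitals mark inverted pairs in either order (GAA, 2 bases, TTC or TTC, 2 bases, GAA).
Hspb1: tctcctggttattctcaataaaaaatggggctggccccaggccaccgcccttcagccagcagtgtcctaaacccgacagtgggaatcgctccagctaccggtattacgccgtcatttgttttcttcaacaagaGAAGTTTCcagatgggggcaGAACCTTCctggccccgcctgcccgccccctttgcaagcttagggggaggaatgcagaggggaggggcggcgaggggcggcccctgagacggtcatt
Hspe1: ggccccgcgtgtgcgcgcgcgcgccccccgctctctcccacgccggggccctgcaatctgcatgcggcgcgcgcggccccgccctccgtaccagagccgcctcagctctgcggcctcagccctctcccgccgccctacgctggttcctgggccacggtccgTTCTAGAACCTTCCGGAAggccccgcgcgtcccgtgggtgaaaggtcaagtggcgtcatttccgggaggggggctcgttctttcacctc
Hspb1 held 2 separate pairs, with first bases 117 and 97 bases before the start site. Hspe1 held 3 overlapping pairs that begin 89, 84 and 79 bases before it, a run that contains the form of 3 units, in which a further inverted unit follows the pair after 2 bases. Each of these motifs was searched on both strands in windows of 300 bases, which reach 50 bases past the start site. A pair was found for 34.5% of 29 genes of the heat shock list and for 17.0% of all 27025 genes in the RefSeq table, and the form of 3 units for 10.3% and 0.662%. Ribosomal protein genes had a pair in 12.1% of 58, and AP-1 genes in 25% of 12. Dnajb1, which had the highest ratio of the named heat shock genes, had no match to these letters in its windows. This says nothing of whether Hsf1 binds there. Hspa8 and Hsp90aa1 are named here without a sequence.

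Other parts of protein quality control did not differ alike. Ubb, a polyubiquitin gene, was higher, with 221 counts in Hspa1-high wells and 159 in Hspa1-low wells (1.54, 1.25 to 1.90). Without the 5 wells it was at 1.47. The list of ubiquitin genes and aggregate autophagy summed to a ratio of 1.40 (1.28 to 1.53), and 1.27 (1.15 to 1.40) without the 5 wells. The CCT chaperonin, which folds actin and tubulin, had 0 of 7 measured members past the fold and a summed ratio of 0.94 (0.78 to 1.13). The proteasome summed to a ratio of 1.04 (0.88 to 1.22), with 1 of 24 lower, against 3.05% of all genes of at least 50 CPM. The lower gene was Psmd4, whose direction turned when wells were thinned to equal depth. Chaperones of the endoplasmic reticulum were lower as a sum, at 6449 CPM in Hspa1-high wells and 8181 CPM in Hspa1-low wells (0.79, 0.71 to 0.88). Hspa5 (BiP), the Hsp70 of that compartment, had 301 counts in Hspa1-high wells, 361 in middle wells and 440 in Hspa1-low wells (0.76, 0.65 to 0.88). Scaled, these were 3510, 3587 and 4627 CPM, so the middle group lay close to the high one. Without the 5 wells the ratio of Hspa5 was 0.85 (0.73 to 0.99), and that of the summed list 0.86 (0.77 to 0.96). Calr, a calcium-binding lectin chaperone, had 40 and 75 counts in Hspa1-high and Hspa1-low wells (0.59, 0.39 to 0.88). Selenos, a membrane protein of the same compartment, was the 1 higher member, with 8 and 1 counts, and its interval reached below 1 without the 5 wells. Of the 15 measured members 1 was thus higher and 1 lower, against 3.25% and 3.05% of all genes at that level.

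**Figure D3:**
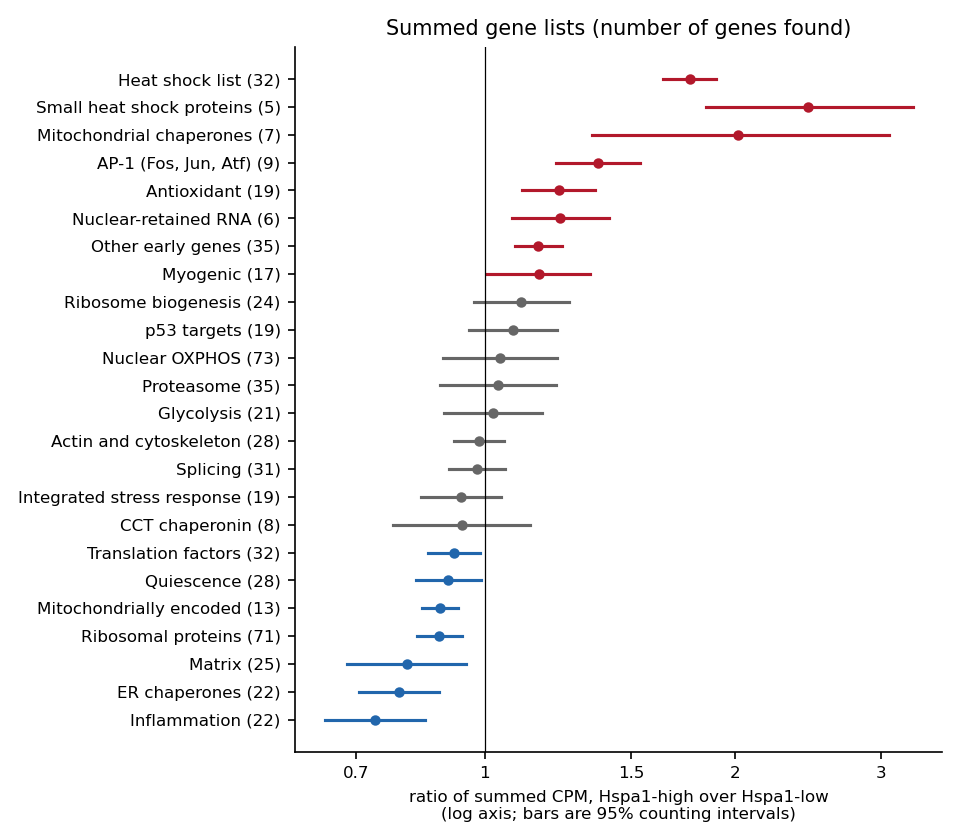
Ratio of the summed CPM of selected gene lists in Hspa1-high over Hspa1-low wells (points) with 95% counting intervals (lines) on a log axis. Brackets give the genes of the list that could be looked up. Marker lists of other cell types are left out. So are the ubiquitin (1.40), Kruppel-like factor, hypoxia, Notch, FGF, BMP, cell cycle, histone acetylation and muscle differentiation lists. Red and blue mark intervals wholly above and below 1. Of the lists plotted, the 3 heat shock lists lie highest, from 1.76 to 2.45 (1.29 to 1.47 without the 5 wells of highest share), and inflammation (0.94 without Cxcl1) and chaperones of the endoplasmic reticulum lowest, at 0.74 and 0.79.

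AP-1 and other early genes were higher in Hspa1-high cells by less than the chaperones, and for Jun, Fosb and Egr1 the difference lay mostly in the same 5 wells. The AP-1 list summed to a ratio of 1.37 (1.22 to 1.54), and 1.20 (1.05 to 1.36) without the 5 wells. Of its 8 measured genes 3 were higher, Jun, Fosb and Atf3, against 3.25% of all genes of at least 50 CPM. Jun had 152 counts in Hspa1-high wells, 85 in middle wells and 81 in Hspa1-low wells (2.08, 1.58 to 2.76), with a median of 2 counts per well in both Hspa1-high and Hspa1-low wells and a highest count of 21 and 11. The 5 wells held 51.3% of the group's Jun, and without them its ratio was 1.25. Fosb had 66 and 42 counts in Hspa1-high and Hspa1-low wells (1.74, 1.17 to 2.63), with 22 of the 66 in 1 well, and 1.14 without the 5 wells. Atf3, a stress-induced member, had 39 and 25 counts (1.73, 1.02 to 2.98) and was detected in 22 and 14 wells, but without the 5 wells its interval held 1 (1.58, 0.89 to 2.82), and the ratio was 1.19 after each well was thinned to 1000 counts. Fos had 1, 2 and 1 counts in Hspa1-high, middle and Hspa1-low wells, too few to compare.

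Among 29 measured early genes outside AP-1, 6 were higher and 1 lower, against 3.25% and 3.05% of all genes of at least 50 CPM. This list summed to a ratio of 1.16 (1.09 to 1.24), and 1.08 (1.00 to 1.15) without the 5 wells. Egr1, a zinc finger factor induced by growth factors, had 282 counts in Hspa1-high wells, 189 in middle wells and 174 in Hspa1-low wells (1.80, 1.48 to 2.18). The 5 wells held 54.3% of the group's Egr1, and without them the ratio was 1.01. Gem, a small GTP-binding protein induced in activated cells, behaved otherwise. It had 120 counts in Hspa1-high wells, 78 in middle wells and 61 in Hspa1-low wells (2.18, 1.59 to 3.02), at 0 to 16 per well with a median of 2 in Hspa1-high wells and 0 to 5 with a median of 1.5 in Hspa1-low wells. Its ratio was 2.15 without the 5 wells, and 10 of 34 Hspa1-high wells lay above every Hspa1-low well. Klf4, a factor of early and resting states, was lower, with 14 and 37 counts in Hspa1-high and Hspa1-low wells (0.42, 0.21 to 0.79). All early and AP-1 genes together gave a ratio of 1.21 (1.14 to 1.28), and 1.10 without the 5 wells.

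**Figure D4:**
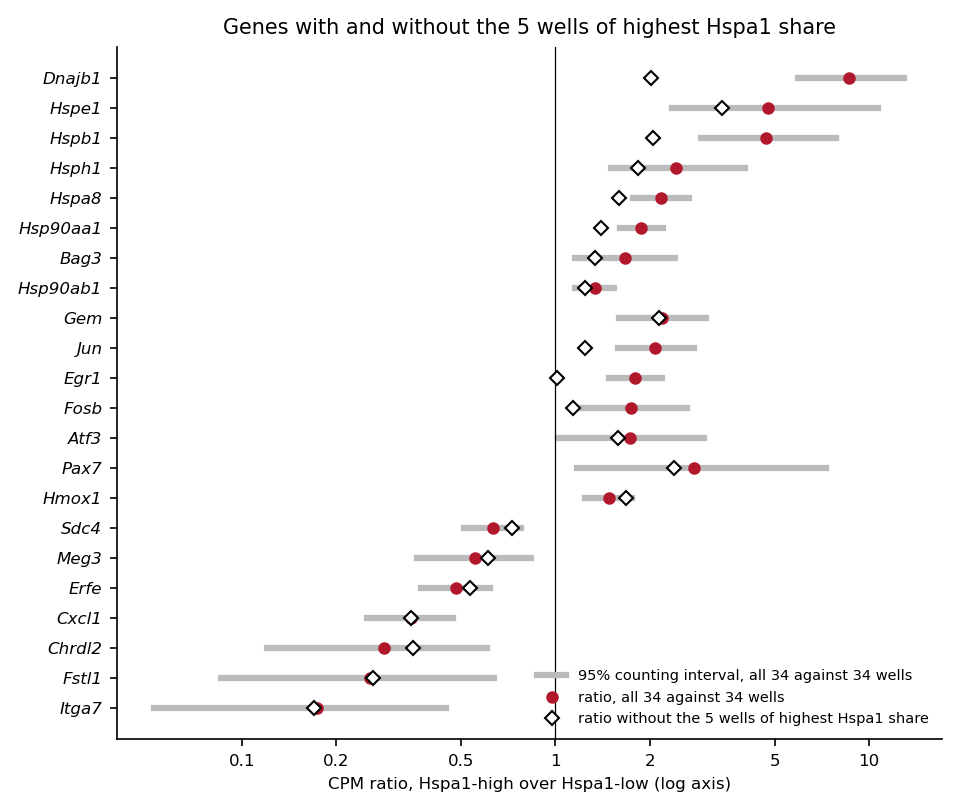
CPM ratio of Hspa1-high over Hspa1-low wells (log axis) for named heat shock genes, early genes and genes that were lower: red points with grey 95% counting intervals use 34 against 34 wells, and open diamonds leave out the 5 wells of highest Hspa1 share. Dnajb1 stands at 8.62 with them and 2.02 without, Egr1 at 1.80 and 1.01, whereas Gem and Itga7 hardly move.

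Genes lower in Hspa1-high cells came from several functions. Without the 5 wells of highest share 58 genes were lower, 51 of them among the 78. Itga7, the laminin-binding integrin chain that anchors muscle stem cells and is used to sort them, had 5 counts in Hspa1-high wells, 17 in middle wells and 32 in Hspa1-low wells. It was detected in 5 Hspa1-high, 12 middle and 21 Hspa1-low wells, never with more than 1 count in a Hspa1-high well and with at most 3 in a Hspa1-low well. The ratio was 0.17 (0.053 to 0.45), and 0.15 to 0.39 over 17 other settings. Chrdl2, a secreted BMP antagonist enriched in resting muscle stem cells, had 9 counts in Hspa1-high wells, 15 in middle wells and 35 in Hspa1-low wells (0.29, 0.12 to 0.60). Sdc4, a heparan sulphate surface receptor used to recognise muscle stem cells, had 146 counts in Hspa1-high wells, 193 in middle wells and 256 in Hspa1-low wells (0.63, 0.51 to 0.78). Its median per well was 4 counts in Hspa1-high wells and 6 in Hspa1-low wells, and 26 of 34 Hspa1-low wells lay above the Hspa1-high median. Its ratio without the 5 wells was 0.73, under the fold.

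Secreted signals were among the lower genes. Erfe (erythroferrone), a hormone that acts on iron handling, had 91 counts in Hspa1-high wells, 149 in middle wells and 210 in Hspa1-low wells (0.48, 0.37 to 0.62). Counts per well ran from 0 to 13 with a median of 1 in Hspa1-high wells and from 0 to 26 with a median of 3.5 in Hspa1-low wells. Cxcl1, a chemokine that draws neutrophils, had 54 counts in Hspa1-high wells, 138 in middle wells and 173 in Hspa1-low wells (0.35, 0.25 to 0.47), but 42 of the 173 lay in 1 well. It was detected in 22 Hspa1-high and 19 Hspa1-low wells, and 11 Hspa1-low wells had a higher level than any Hspa1-high well. Without the highest well of each group its ratio was 0.40. Inflammation genes as a list summed to 3988 CPM in Hspa1-high wells and 5405 CPM in Hspa1-low wells (0.74, 0.64 to 0.85). Cxcl1 was the 1 of 11 past the fold, against 3.05% lower among all genes of at least 50 CPM. Without Cxcl1, an alternative chosen after its values were seen, the list summed to 3358 and 3586 CPM (0.94, 0.80 to 1.10). Fstl1, a secreted glycoprotein, had 6 counts in Hspa1-high wells, 33 in middle wells and 26 in Hspa1-low wells.

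The other genes of the 10 lowest were of low count. Zfp217, a zinc finger transcription factor, had 2 and 20 counts in Hspa1-high and Hspa1-low wells. Nedd4l, a ubiquitin ligase, had 4 and 24, and Sh3pxd2b, an adaptor of podosomes, had 8 and 31. Pcdh18, a protocadherin, had 5 and 23 counts, of which 10 in 1 Hspa1-low well. Tnfrsf23, a decoy receptor of the TNF family, had 4 and 22 counts, but a ratio of 1.02 when wells were thinned to 1000 counts before ranking. The thinning leaves fewer counts and other wells in the groups, and 15 of its 50 lower genes were among the 78.

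Genes of the resting stem cell differed in both directions. Of 20 measured members 3 were higher (Hes1, Pax7 and Peg3) and 4 lower (Chrdl2, Itga7, Meg3 and Sdc4), against 3.25% and 3.05% of all genes at that level. Their median log2 ratio was 0.03, whereas their sum was slightly lower, with a ratio of 0.90 (0.83 to 0.99) and of 0.82 to 0.97 over 17 other settings. The sum was 10192 CPM in Hspa1-high, 9399 CPM in middle and 11273 CPM in Hspa1-low wells, so the middle group was lowest. Pax7 had 20 counts in Hspa1-high wells, 6 in middle wells and 8 in Hspa1-low wells (2.77, 1.17 to 7.28) and was detected in 14, 6 and 8 wells, so that the middle group was no higher than the low one. Its interval held 1 without the 5 wells (2.39, 0.93 to 6.56). Hes1, a Notch target, had 17 and 5 counts in Hspa1-high and Hspa1-low wells, 13 of them in 1 Hspa1-high well, and its ratio was 0.818 without the 5 wells. Meg3, a non-coding RNA, had 37 and 74 counts (0.55, 0.36 to 0.83). Vcam1, a surface protein used to sort these cells, had 665 CPM in Hspa1-high wells, 139 CPM in middle wells and 641 CPM in Hspa1-low wells. Spry1, an ERK pathway inhibitor that maintains rest, had a ratio of 0.95 (0.59 to 1.52).

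Myogenic factors differed little. Myod1 had 2670 CPM in Hspa1-high wells, 2603 CPM in middle wells and 2145 CPM in Hspa1-low wells, a ratio of 1.24 (1.03 to 1.51), and Myf5, which marks the lineage, had 385 and 421 CPM in Hspa1-high and Hspa1-low wells (0.91, 0.56 to 1.49). Igfbp5, a secreted IGF-binding protein, was higher with 58 and 30 counts (2.14, 1.36 to 3.45). Msc (musculin), a repressor of myogenic factors, was lower with 10 and 25 counts (0.44, 0.19 to 0.96), but its interval held 1 without the 5 wells (0.49, 0.20 to 1.09). Differentiation genes of muscle summed to 128 and 94.6 CPM, with none at 50 CPM.

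Ribosomal protein genes were slightly lower together. They summed to 20699 CPM in Hspa1-high wells and 23471 CPM in Hspa1-low wells (0.88, 0.83 to 0.94). Middle wells had 19862 CPM, the lowest of the groups, so the sum did not fall steadily with the Hspa1 share. Their median log2 ratio was -0.18 over 62 genes, against -0.04 for all genes of at least 50 CPM. Of the 62, 0 were higher and 4 lower (Rpl10, Rpl9, Rplp2 and Rps15), against 3.25% and 3.05% of all genes at that level. Genes of the mitochondrial genome had a summed ratio of 0.88 (0.84 to 0.93), with 1 of 12 lower, against the same 3.05%. The lower gene was mt-Co3, which was under the fold without the 5 wells (0.75). The mitochondrial share of all gene counts had a median of 3.11% in Hspa1-high wells and 3.38% in Hspa1-low wells. The ratio of the mitochondrial genes lay on both sides of 1 over the other settings, from 0.80 to 1.10.

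The same ranking was then applied to cultured cells, which the rule had not used. Hspa1 RNA was scarcer there, with a median share of 0.0788% in high glucose wells, 0.0183% with low glucose and 0.0164% with galactose, against 0.419% in freshly isolated wells. The Hspa1-low wells held 88 Hspa1 counts in total with high glucose, 31 with low glucose and 25 with galactose. Of 37, 40 and 40 such wells, 4, 19 and 20 had none. The ranking on plate 2 therefore rests on few counts, which limits what a missing difference there shows. In culture, wells of high and low Hspa1 share also differed in depth, with median gene counts of 4148 and 10836 with high glucose, 9143 and 16578.5 with low glucose, and 13526 and 14140.5 with galactose. Between 34.7 and 38.8% of genes were past the fold in either direction there, against 8.06% in freshly isolated cells, so counts of list members are not set side by side. The compared groups pooled 167385 to 673618 counts without Hspa1a and Hspa1b in culture, against 85755 and 95096 in freshly isolated cells. More counts give narrower intervals, so these shares do not show that cultured cells differ more. The part of depth in the differences among cultured wells was not tested.

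The heat shock list had a ratio of 1.64 (1.56 to 1.73) of Hspa1-high over Hspa1-low wells among high glucose cells, 1.33 (1.28 to 1.38) with low glucose and 1.20 (1.16 to 1.24) with galactose. Hspa8 with its copies had ratios of 2.15 (2.03 to 2.27), 1.03 (0.98 to 1.08) and 0.84 (0.80 to 0.88) in the same order, so that it was not higher in the plate 2 cells. Hsp90aa1 with its copies was above 1 in all 3, at 3.05, 1.59 and 1.30. AP-1 genes summed to 1.83, 1.80 and 1.70. Chaperones of the endoplasmic reticulum, lower in freshly isolated Hspa1-high wells, had ratios above 1 in all cultures, at 1.53 (1.38 to 1.68) with high glucose, 1.22 (1.13 to 1.31) with low glucose and 1.11 (1.04 to 1.19) with galactose. Erfe, with 21 and 13 counts in high glucose cells, had a ratio of 3.91 (1.87 to 8.49) there. Itga7 had ratios of 1.51 (0.82 to 2.72), 1.49 (1.07 to 2.06) and 1.28 (0.94 to 1.73) in the same order. A lower level of Itga7 in Hspa1-high wells was therefore seen in the freshly isolated cells and in none of the cultures. The difference between conditions was not tested, and the plate 2 ranking rests on few Hspa1 counts. Ribosomal proteins were below 1 in all 3, at 0.68, 0.76 and 0.77.

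**Figure D5:**
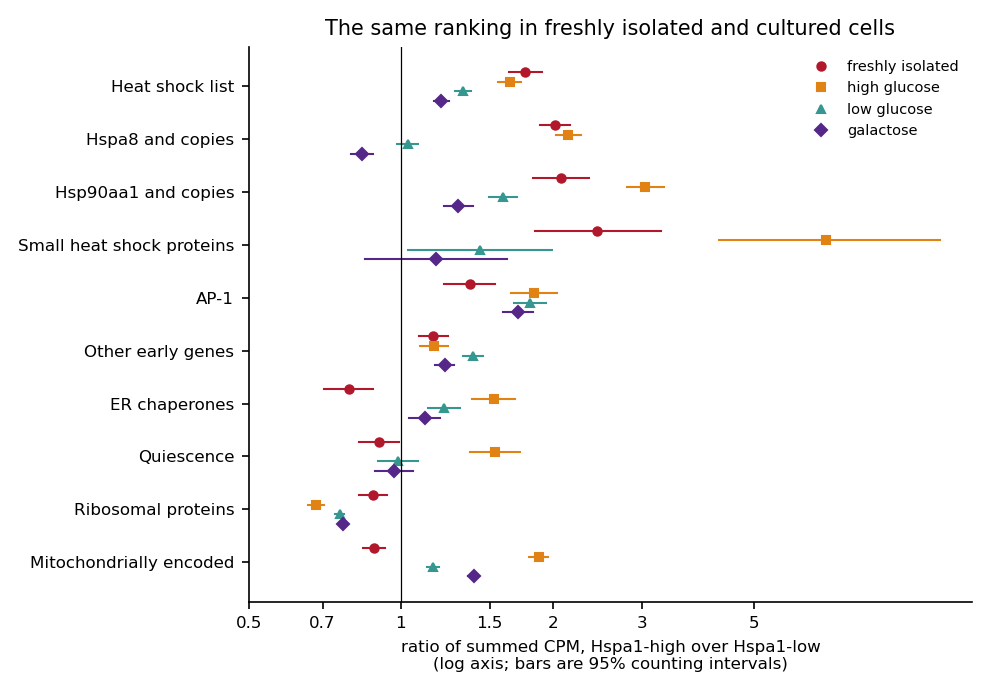
Ratio of summed CPM of Hspa1-high over Hspa1-low wells (log axis) for 10 gene groups, ranked separately within freshly isolated, high glucose, low glucose and galactose wells; lines are 95% counting intervals. The heat shock list and AP-1 lie above 1 in all conditions, Hspa8 with its copies at 2.02 and 2.15 on plate 1 and at 1.03 and 0.84 on plate 2, and ribosomal proteins below 1 throughout.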

How the data were processed

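RNA counts per gene and well were used from 2 plates of single muscle stem cells. The authors deposited raw counts: all values were whole numbers, and totals differed between wells. Per the labels, the first read holds the UMI in bases 1 to 6 and the well barcode in bases 7 to 14. The aligner, counter, build and annotation, and whether UMIs were collapsed in the deposited counts, are not stated in the sources; edgeR stands in the submitters' processing notes with no role. The condition of each well came from the deposited well sheet, whose columns hold no measurement (unit other).

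ERCC counts were left out of totals. Of 21216 gene identifiers 21132 had a symbol. Counts were summed over the 34 wells of a group and scaled by total gene counts without Hspa1a and Hspa1b to CPM. Ratios carry exact conditional (Clopper-Pearson) 95% intervals, for counting error only and not adjusted for choosing genes by them. A gene was called higher or lower at a ratio of at least 1.5 with an interval that left out 1. All-gene counts used a mean of at least 100 CPM, list members at least 50 CPM (called measured), and log2 ratios a pseudocount of 1 CPM. There was 1 library and cells are not replicates, so no p-value was computed, and no doublet caller was run. The naming rule took 10 higher and 10 lower genes whose interval bound lay farthest from 1 (detected in at least 20% of wells of the higher group), up to 4 members of each list and a set always looked up. Members past the fold were also named after their values were seen where they were few. Copies were assigned with BLAST 2.17.0 against GENCODE M21 transcripts, with at least 85% identity over at least 50% of the copy. The ratios were computed with pandas 2.3.3 and scipy 1.17.1 and tested on simulated counts. The members and the gene lists were chosen with earlier results of these data known. The alternatives were other scalings, rankings, group sizes, minimums and left-out wells.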

Additional observations from a re-analysis of the deposited data

How the results depend on the processing

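Without the 5 wells of highest Hspa1 share, the ratio of the heat shock list was 1.36 and that of all early genes 1.10. With ERCC scaling they were 1.60 and 1.09, and 143 genes were lower, while the number higher, 56, moved by less than 1.5 times. Thinning each well to 1000 counts gave 1.63 for the heat shock list and 50 lower genes. Comparing fewer wells at each end (25 against 25) gave 2.08 for the heat shock list. Comparing the upper 51 with the lower 51 wells gave it 1.53 and early genes 1.13, and ranking by Hspa1 over ERCC counts gave early genes 1.13. A mean of at least 200 CPM left 47 lower genes, and no minimum gave 150 higher and 133 lower. Over all these settings both lists stayed above 1. Of the named genes past the fold 3 turned: Psmd4 to 1.22 and Tnfrsf23 to 1.02 after thinning, and Hes1 to 0.818 without the 5 wells. Without the 5 wells 49 of 62 higher and 51 of 58 lower genes were among those reported, but after thinning only 29 of 56 and 15 of 50. The cause was not tested, apart from thinning, which leaves fewer counts. A median of about 2500 counts per well limits genes of low level to a few counts per group, and a well with 0 counts of a gene may still express it. No paired analysis was possible because the compared wells come from 1 library and carry no replicate numbers.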

Other observations

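Hmox1, the heme-degrading enzyme of the antioxidant response, had 317 counts in Hspa1-high wells, 273 in middle wells and 238 in Hspa1-low wells, a ratio of 1.48 (95% counting interval 1.24 to 1.75), and 1.68 without the 5 wells of highest Hspa1 share. It was detected in 34 Hspa1-high and 30 Hspa1-low wells. The antioxidant list summed to a ratio of 1.23 (1.11 to 1.36). Txn1 (thioredoxin) was the 1 lower of its 13 measured members, against 3.05% of all genes of at least 50 CPM. It had 9 and 24 counts, and its interval held 1 without the 5 wells. Cycs (cytochrome c), with 21 and 7 counts, was the 1 higher of 20 measured nuclear genes of oxidative phosphorylation. This compares with 3.25% of all genes of at least 50 CPM, and the list summed to a ratio of 1.04 (0.89 to 1.22). Bnip3l, a receptor of mitophagy, had 19 and 8 counts (2.63, 1.10 to 6.95). Id3, a BMP-induced inhibitor of basic helix-loop-helix factors, had 9 counts in Hspa1-high wells, 16 in middle wells and 31 in Hspa1-low wells (0.32, 0.13 to 0.69).

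Matrix genes summed to a ratio of 0.81 (0.68 to 0.95), with Col3a1 at 72 and 124 counts and Sparc at 40 and 73 in Hspa1-high and Hspa1-low wells. Col3a1 is also a marker of fibro-adipogenic cells, and 30 of its 124 counts lay in 1 Hspa1-low well. Malat1, a nuclear non-coding RNA, had 371 counts in Hspa1-high wells, 462 in middle wells and 299 in Hspa1-low wells (1.38, 1.18 to 1.61). Glycolysis, splicing, cytoskeletal and cell cycle lists had summed ratios of 1.02, 0.98, 0.98 and 0.99, with intervals that held 1.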
